A study of Mus musculus with 4 samples.

Results

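The genes described here carry out synthesis, vesicle loading and reception of the inhibitory transmitters GABA and glycine. They are 8 of the 22180 genes named on the arrays: Gad1, Gad2, Slc32a1, Glra1, Glra2, Glra3, Glrb and Gabra2. They were chosen by gene symbol for these functions, and transcript clusters of 1 gene were averaged. RNA of mouse embryos on a mixed C57BL/6J x FVB/N background was read on 4 Affymetrix whole-transcript arrays. The groups were Tbx1 knockout (KO) palatal shelves at embryonic day 13.5 (E13.5), wild-type palatal shelves at E13.5, Tbx1 KO head at E12.5 and wild-type head at E12.5, with 1 array each. Tbx1 encodes a T-box transcription factor of the pharyngeal apparatus, and the palatal shelves are the paired outgrowths from which the secondary palate forms. The sources used here give neither the KO allele nor whether RNA of several embryos was pooled.

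Values are log2 expression after RMA, so a difference of 1 is 2-fold. A gene entered a pair of arrays when its higher value reached log2 6.16, the median of the named genes on the arrays. Each group has 1 array, so KO differences within a tissue have no replicate check and are given without a test. Tissue and stage change together, so shelves against head also means E13.5 against E12.5. The targeted gene Tbx1 was at 6.18 in KO shelves, against 7.39 in wild-type shelves, and at 6.25 in KO head, against 6.83 in wild-type head. Whether its probes lie in the deleted part is not known here. The shelf label was checked against palatal mesenchyme markers. By a limma fit of genotype and tissue, 6 of 7 were called higher in shelves than in head, against 13% of all genes tested. Twist1 (0.28) was not called. Osr2, a factor needed for palate growth, differed by 1.63 on the log2 scale (limma SE 0.10, adjusted p = 0.000155).

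GABA is made from glutamate by the decarboxylases encoded by Gad1 and Gad2, and the vesicular transporter encoded by Slc32a1 loads both GABA and glycine into synaptic vesicles. Glycine receptors and GABA-A receptors are chloride channels built of several subunits. In the embryonic nervous system these channels are typically excitatory at first, and the glycine receptor subunit of Glra2 is the fetal form that is later largely replaced by that of Glra1. Palatal shelves consist mostly of neural-crest-derived mesenchyme with an epithelial cover, whereas the head contains the brain.

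Among the synthesis genes, Gad2, which encodes the decarboxylase enriched at nerve terminals, was higher in the KO shelves and level between the head arrays. Its log2 level was 6.69 in KO shelves, against 5.58 in wild-type shelves, and 9.14 in KO head, against 9.14 in wild-type head. Both head arrays stood far above both shelf arrays, and of the shelf arrays the KO one was the higher. The log2 difference was 1.11 in the shelves, where the wild-type array lay below the level for entry and the size is uncertain, and 0.00090 in the head. Gad1, which encodes the decarboxylase spread through the whole neuron, was also higher in both head arrays than in both shelf arrays, with smaller steps. Its level was 6.26 in KO shelves, against 5.94 in wild-type shelves, and 6.82 in KO head, against 6.89 in wild-type head. The log2 difference of Gad1 was 0.32 in the shelves and -0.07 in the head. The shelf value was somewhat above 0.226, the SD per transcript cluster of such a difference there. That SD was taken from 233 genes with a pair of clusters, both reaching the level for entry, and scaled to 1 cluster. The clusters of a gene thus part from each other by more than this SD. It describes clusters read on the same RNA and not a spread between embryos or arrays.

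Slc32a1, the vesicular GABA and glycine transporter, did not share the higher KO level in the shelves. Its level was 5.58 in KO shelves, against 5.58 in wild-type shelves, and 6.21 in KO head, against 6.24 in wild-type head. Only its head arrays lay above 6.16. The gene is read by 2 transcript clusters, which went opposite ways in the shelves, with log2 differences of 0.17 and -0.18. The first cluster was the brighter in the head (6.55 in KO and 6.61 in wild type) and had 5.51 in KO shelves, against 5.34 in wild-type shelves. The second ranged from 5.65 in KO shelves to 5.87 in KO head, and so hardly separated the tissues.

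Of the glycine receptor subunits, Glra2 had the largest KO difference of all members. Its log2 level was 6.30 in KO shelves, against 4.41 in wild-type shelves, and 8.37 in KO head, against 8.35 in wild-type head. The KO shelf array was thus just above the level for entry, while the wild-type shelf array was far below it and both head arrays far above. The log2 difference was 1.89 in the shelves and 0.03 in the head. No exact fold is given for the shelves, since the wild-type value is that of a dim probe set. Counted from the highest KO minus wild-type difference, Glra2 stood 6th and Gad2 39th among the 11449 genes that entered the shelf pair, both with a wild-type value below the level for entry. Glra2 is X-linked, and the head arrays differed in sex-linked RNA. Xist was at 10.04 in KO head, against 11.10 in wild-type head, and at 11.02 in KO shelves, against 10.89 in wild-type shelves. The Y-linked genes Eif2s3y, Kdm5d and Uty differed by 1.41, 1.32 and 1.39 in the head. In the shelves they differed by 0.20, -0.09 and -0.12. Xist and Uty were above the level for entry on every array. The part of sex-linked differences in the Glra2 levels was not tested, and Glra2 itself differed by 0.03 between the head arrays.

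The other glycine receptor subunits differed less in the shelves. Glrb encodes the beta subunit, which anchors glycine receptors to the scaffold protein gephyrin. It was at 7.04 in KO shelves, against 7.13 in wild-type shelves, and at 7.33 in KO head, against 7.63 in wild-type head, and it lay above the level for entry on every array. Its log2 difference of -0.30 in the head was the largest in size of any member there, in a pair where the SD per transcript cluster was 0.176. Glra1, the main alpha subunit of the adult spinal cord, was below the level for entry on all arrays. It was at 4.21 in KO shelves, against 4.45 in wild-type shelves, and at 5.55 in KO head, against 5.82 in wild-type head, lower in the KO array of both tissues. Glra3, a further alpha subunit, was also dim throughout, at 4.03 in KO shelves, against 3.63 in wild-type shelves, and 3.93 in KO head, against 3.99 in wild-type head. No fold is given for Glra1 and Glra3, which were below the level for entry on every array.

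Gabra2, an alpha subunit of GABA-A receptors, resembled Gad2 with smaller steps. Its level was 6.89 in KO shelves, against 6.26 in wild-type shelves, and 8.005 in KO head, against 7.96 in wild-type head. It was above the level for entry on all arrays, and its fold was 1.55 in the shelves and 1.03 in the head. Levels are per probe set, and no gene's level is set against that of another gene.

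**Figure D1:**
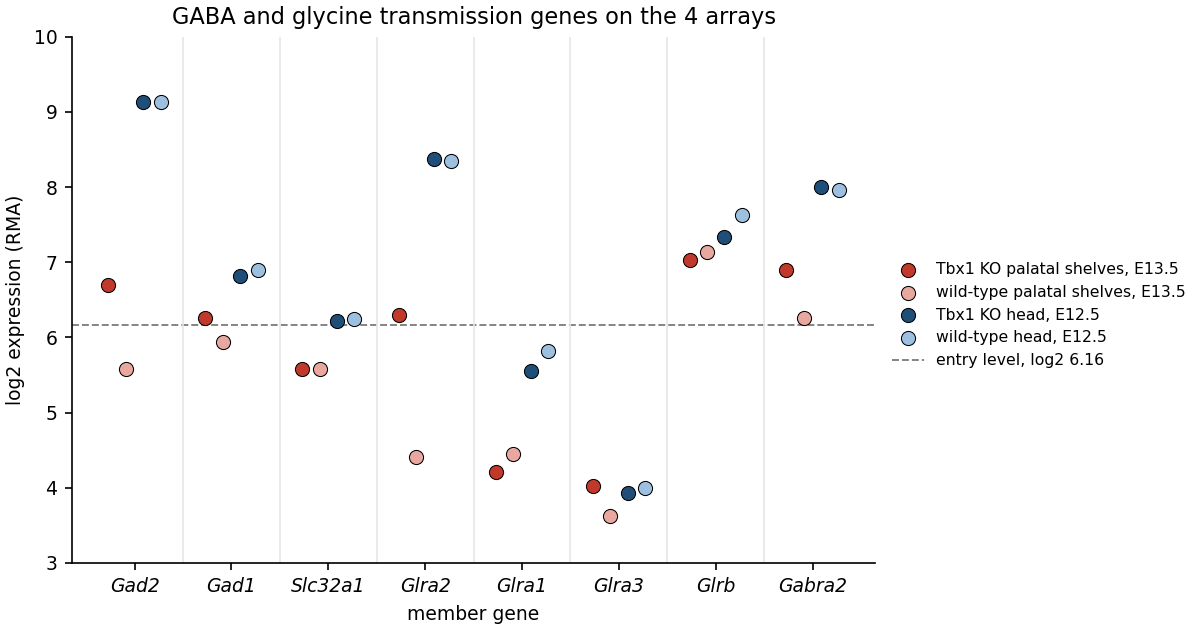
Log2 expression (RMA, vertical axis) of the 8 genes on each of the 4 arrays, KO left of wild type, with the level for entry (6.16) dashed. For Gad2, Glra2 and Gabra2 the head points coincide nearly, and the KO shelf point lies between the wild-type shelf point and the head points.

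In the shelf pair, 2 of the 5 members that entered were at least 2-fold higher in the KO array, Gad2 and Glra2, and none was at least 2-fold lower. Over all genes that entered, 53 of 11449 (0.463%) were higher by 2-fold or more, and 0.472% were lower by that much. Gad1, Gad2 and Glra2 entered the shelf pair only through the KO array, so the count is a description of them. With no filter the same count was 2 of 8 members, against 0.316% of 22180 genes. The median log2 difference of all 8 members was 0.36, with 5 above 0, and that of the 5 that entered was 0.63. Over all genes the median was -0.0068 without a filter and 0.021 among those that entered, of which 55.2% were above 0. In a bulk sample, more cells of a type and more RNA per cell cannot be told apart.

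In the head pair, none of the 6 members that entered was 2-fold different in either direction, where 0.0352% of 11364 genes were higher by 2-fold or more (0.0451% of all genes without a filter) and 0.0528% were lower by that much. The median log2 difference of all 8 members was -0.045, with 3 above 0, beside 0.0089 over all genes. Of the genes that entered, 44.5% were above 0. The shelf difference minus the head difference was 1.87 for Glra2, 1.11 for Gad2, 0.59 for Gabra2, 0.46 for Glra3, 0.39 for Gad1, 0.20 for Glrb, 0.038 for Glra1 and 0.018 for Slc32a1. No degree of freedom is left to test these differences between tissues.

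**Figure D2:**
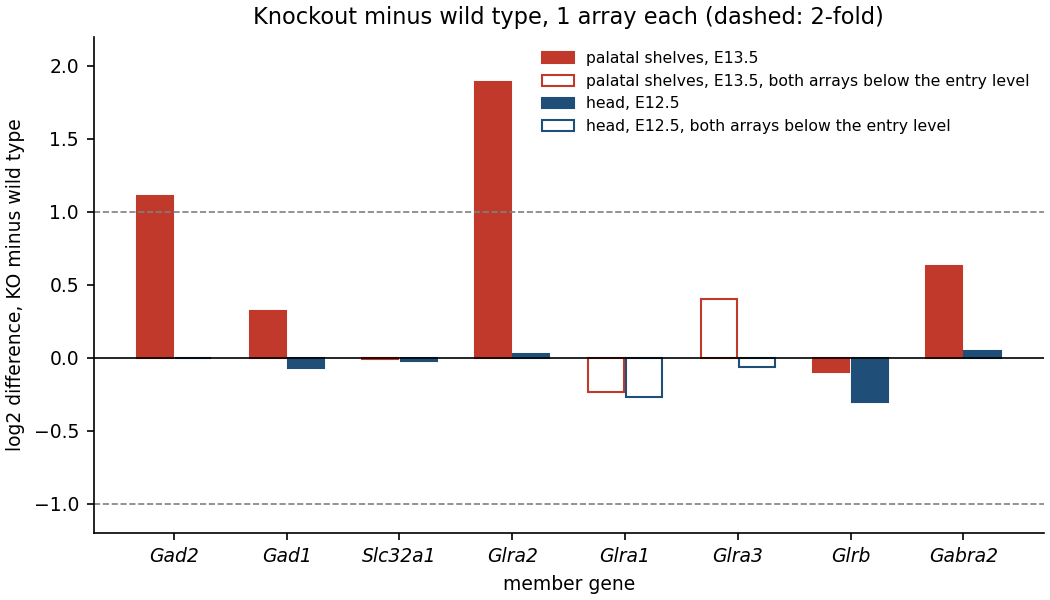
Log2 difference, KO minus wild type (vertical axis), of each gene in the palatal shelves and in the head, with open bars where both arrays were below the level for entry and dashed lines at 2-fold. Gad2 (1.11) and Glra2 (1.89) pass 2-fold in the shelves, and no bar does in the head.

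Over both tissues, no member passed the test for genotype. An additive limma fit of genotype and tissue over the 4 arrays, with 1 residual degree of freedom and a prior of 5.49 degrees of freedom from all genes, tested 11999 genes, 6 of them members. It called 0% of all genes at an adjusted p of 0.05, and 628 genes (5.23%) had an unadjusted p below 0.05, among them 1 member, Glra2. The KO minus wild-type coefficient of Glra2 was 0.96 (limma SE 0.38, adjusted p = 0.919), that of Gad2 0.56 (SE 0.24) and that of Gabra2 0.34 (SE 0.15), the last 2 with the same limma adjusted p of 0.919. Those of Gad1 (0.13), Slc32a1 (-0.016) and Glrb (-0.20) had limma adjusted p-values of 0.983, 0.993 and 0.933. A gene's SE in this fit grows with how far its differences in the 2 tissues part, as those of Glra2 and Gad2 did. With 1 common variance for all genes in place of limma's prior, Gad2 and Glra2 passed (adjusted p = 0.0213 and 9.47e-08), and with the 8 other alternatives none did (adjusted p up to 0.997 for both). The common-variance setting called 150 of 11999 genes (1.25%). It sets aside how far a gene's own differences part between the tissues, and it adds no replicate arrays.

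Between tissues, all 6 members in the fit were lower in the shelves than in the head, where 1787 of 11999 genes (14.9%) were called lower in shelves and 13% higher (27.9% in either direction). This was not particular to the members. Of the pan-neuronal genes described below, 14 of 14 were called lower, with a median of -1.97, against -1.08 for the members. Of 11 glutamatergic genes 9 were lower and 2 higher, and of 10 neural progenitor genes 9 were lower and 0 higher. Gad2 fell by 3.001 on the log2 scale (limma SE 0.24, adjusted p = 0.000330) and Glra2 fell by 3.01 (SE 0.38, limma adjusted p = 0.00185). Gabra2 fell by 1.41 (SE 0.15, limma adjusted p = 0.000989), Gad1 by 0.75 (limma adjusted p = 0.00565), Slc32a1 by 0.65 (limma adjusted p = 0.00404) and Glrb by 0.40 (limma adjusted p = 0.0343). Slc32a1 entered the fit only through the head arrays, so a lower shelf level was built into its entry. Its value averages 2 clusters, and with its brightest cluster alone shelves minus head was -1.16 (limma adjusted p = 0.000984). With robust eBayes the limma adjusted p of Glra2 was 0.114. Shelves minus head, the log2 difference of Glra2 was -2.08 between KO arrays and -3.94 between wild-type arrays, and that of Gad2 was -2.45 between KO arrays and -3.55 between wild-type arrays. Both wild-type differences rest on a shelf value below the level for entry, so their size is uncertain. For Slc32a1, below that level in both shelf arrays, the difference was -0.64 between KO arrays and -0.65 between wild-type arrays.

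The members formed sets of differing steepness across the arrays. As a measure of likeness, each gene's levels were centred on their mean over the 4 arrays, and the root mean square distance between genes was taken. Gad2 and Glra2 lay 0.28 apart, and Slc32a1 lay 0.13 from Gad1 and 0.16 from Glrb. The distance from Glra2 to Glrb, the largest between members, was 1.49. Gabra2 was nearest the mean profile of the 6 members (0.073). The 6 other genes closest to that mean profile were Arhgap33 (0.036), Anks1b (0.038), Shc3 (0.040), Amer2 (0.045), Disp2 (0.047) and Map6 (0.053). Their shelf differences ran from 0.53 to 0.74 and their head differences from -0.099 to 0.0018. These ranges follow from the choice of the genes by the same 4 arrays. The measure rests on 4 arrays and describes likeness only.

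**Figure D3:**
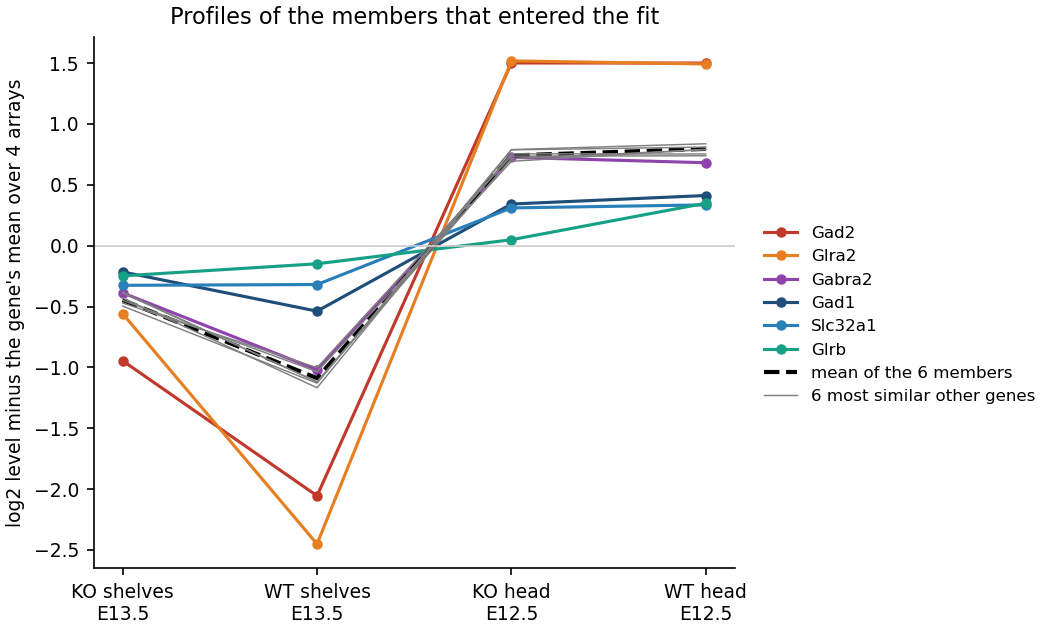
Log2 level minus the gene's mean over the 4 arrays (vertical axis) for the 6 members in the fit, their mean (dashed) and the 6 most similar other genes (grey), with lines only guiding the eye between arrays. Gad2 and Glra2 have the steepest profiles, Gabra2 follows the mean, and Gad1, Slc32a1 and Glrb are flatter.

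The promoters of Gad2, Glra2 and Gabra2, which had the largest shelf differences among members that entered, are shown beside that of Slc32a1, whose shelf arrays were level. Each is the 250 bases before the gene's start in RefSeq (GRCm38.p6), written 5′ to 3′ on the gene's strand, with capitals marking matches to the motifs searched. Gad2 is at chr2:22622077-22622326, plus strand, Glra2 at chrX:165327394-165327643, minus strand, Gabra2 at chr5:71095850-71096099, minus strand and Slc32a1 at chr2:158610508-158610757, plus strand.
Gad2: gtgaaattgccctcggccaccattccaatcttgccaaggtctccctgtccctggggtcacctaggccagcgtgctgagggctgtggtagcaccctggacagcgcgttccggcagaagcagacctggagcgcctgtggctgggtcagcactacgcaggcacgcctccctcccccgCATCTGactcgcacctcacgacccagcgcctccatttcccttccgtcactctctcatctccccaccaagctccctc
Glra2: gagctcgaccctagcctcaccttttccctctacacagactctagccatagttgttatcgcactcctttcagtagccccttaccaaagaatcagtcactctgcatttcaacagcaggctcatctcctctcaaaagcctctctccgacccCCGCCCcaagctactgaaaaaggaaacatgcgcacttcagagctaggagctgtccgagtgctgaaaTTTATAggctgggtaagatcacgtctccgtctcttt
Gabra2: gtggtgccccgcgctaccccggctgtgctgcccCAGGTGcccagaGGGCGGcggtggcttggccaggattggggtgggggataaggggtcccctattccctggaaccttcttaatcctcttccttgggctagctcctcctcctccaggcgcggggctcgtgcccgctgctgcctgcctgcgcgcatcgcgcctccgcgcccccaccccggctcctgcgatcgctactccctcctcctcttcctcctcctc
Slc32a1: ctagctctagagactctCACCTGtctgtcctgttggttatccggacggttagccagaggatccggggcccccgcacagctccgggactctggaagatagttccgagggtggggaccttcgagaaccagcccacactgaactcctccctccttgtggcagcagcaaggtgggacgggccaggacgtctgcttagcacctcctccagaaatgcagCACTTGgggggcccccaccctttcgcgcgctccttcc
The motifs, searched on both strands, were TATAAA (the TATA box), CANNTG (the E-box of basic helix-loop-helix factors), TAATTA (a homeodomain core such as Dlx factors bind) and GGGCGG (the GC box). They were found without overlap between motifs in these 4 sequences. Glra2 holds TATAAA on the opposite strand, starting 36 bases before the gene's start, and a GC box on the opposite strand. Gad2 holds 1 E-box, Gabra2 holds 1 E-box and 1 GC box, and Slc32a1 holds 2 E-boxes. Of the 7 members with a promoter in the table, 6 held an E-box, 5 a GC box, 2 TATAAA and 0 TAATTA. Of all 32851 promoters of this length, 66.2% held an E-box, 32.7% a GC box, 12.4% TATAAA and 4.84% TAATTA. The GC content was 64% for Gad2, 50.4% for Glra2, 70% for Gabra2 and 62.4% for Slc32a1, beside a median of 52.4% over all promoters. A match is a run of letters and not a bound site.

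Other genes of GABA reception differed in both directions in the shelves. Of 15 other GABA-A subunit genes analysed, 11 were above 0 and the median log2 difference was 0.20. The 6 that entered the shelf pair, 2 of them only through the KO array, had a median of 0.48, with 1 at least 2-fold higher. That gene was Gabra5, an alpha subunit of extrasynaptic receptors, at 7.05 in KO shelves, against 5.61 in wild-type shelves, and 6.65 in KO head, against 6.90 in wild-type head. Unlike Gad2 and Glra2, its KO shelf level was above both head levels. Gabre, the epsilon subunit, differed by 0.64, Gabra3 by 0.59 and Gabrb2, a beta subunit, by 0.37 in the shelves. In the head the 6 entering subunits had a median of -0.042 (0.047 over all 15), with Gabra5 at -0.25 and Gabra3 at -0.21. By the tissue test, 3 of 6 were lower and 2 higher in shelves than in head.

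For the GABA-B receptor and the uptake and breakdown of GABA, 4 of 7 genes entered the shelf pair, none was 2-fold different, and the median was 0.13, as over all 7. Gabbr1, a subunit of the G-protein-coupled GABA receptor, was at 8.96 in KO shelves, against 8.35 in wild-type shelves, while its partner Gabbr2 differed by -0.13. Abat and Aldh5a1, the enzymes of GABA breakdown, both differed by 0.13. In the head this list had a median of 0.019 over 6 genes. Of 6 genes in the tissue test, 4 were lower in shelves.

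Of the genes of glycine uptake and turnover, 4 of 7 entered the shelf pair, with none 2-fold different and a median of 0.18. Over all 7 the median was -0.030, with 3 above 0 and 4 below. Amt, of the glycine cleavage system, differed by 0.30 there. Slc6a5, the glycine transporter of glycinergic nerve terminals, was below the level for entry in both shelf arrays. It was at 4.68 in KO shelves, against 5.18 in wild-type shelves. Slc6a5 differed by -0.39 in the head, where the list had a median of -0.080 over 6 genes. By the tissue test Slc6a5 and 2 others of 6 were lower in shelves.

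At the inhibitory synapse, 9 of 12 scaffold and partner genes entered the shelf pair, with a median of 0.31 (0.22 over all 12), 6 above 0 and none 2-fold different. Slitrk3, an adhesion protein of inhibitory synapses, was at 6.83 in KO shelves, against 6.11 in wild-type shelves, and so entered only through the KO array. The adhesion gene Nlgn2 was at 9.06 in KO shelves, against 8.37 in wild-type shelves. Gphn, encoding the gephyrin scaffold that holds glycine receptors through the Glrb subunit, is outside the naming rule and is given for that link, with a difference of 0.077. In the head all 12 entered, with a median of -0.077. Chloride and bicarbonate genes had medians of 0.10 in the shelves and 0.024 in the head, 6 genes each, none 2-fold different, and of 0.049 and -0.036 over all 7. Among them Slc12a5, the chloride extruder of mature neurons, differed by 0.18 in the head, and Slc12a2, the chloride importer, by -0.35 in the shelves. By the tissue test, 6 of 12 synapse genes and 3 of 6 chloride genes were lower in shelves, and 0 and 1 were higher.

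Transcription factors of inhibitory lineages did not move as one in the KO shelves. Of 19 analysed, 6 entered, with 3 above and 3 below 0, a median of 0.14 and none 2-fold different, while the median over all 19 was -0.023. Dlx6 differed by -0.63 and Dlx2 by 0.53, and Lhx6 (0.40) and Lhx8 (0.32) were among the higher ones. These genes also mark jaw and palatal mesenchyme: by the limma fit Lhx6 was higher in shelves than in head by 1.09 (limma adjusted p = 0.00147) and Lhx8 by 1.63 (limma adjusted p = 0.000179). Lhx5, a factor of neural tube interneurons and hypothalamus, was below the level for entry in both shelf arrays, at 5.65 in KO shelves, against 4.06 in wild-type shelves. It is named after its values were seen. In the head, 13 factors entered with a median of 0.050, led by Lhx1 (0.57) and Pax2 (-0.43). Of these 13, 7 were lower and 2 higher in shelves by the tissue test.

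Peptide and calcium-binding genes of interneurons included members far apart. Of 12, 5 entered the shelf pair, with 2 higher and 1 lower by 2-fold or more and a median of 0.055 (0.0059 over all 12). Sst and Calb1 entered only through the KO array, and Calb2 only through the wild-type array. Over all 12, 6 were above 0 and 6 below. Calb1, encoding calbindin, was at 6.18 in KO shelves, against 4.70 in wild-type shelves, and the somatostatin gene Sst was at 6.55 in KO shelves, against 5.23 in wild-type shelves. Calb2, encoding calretinin, was at 5.05 in KO shelves, against 6.40 in wild-type shelves. Vip, below the level for entry on every array, was at 5.04 in KO shelves, against 6.08 in wild-type shelves. Vip is named after its values were seen. In the head the list had a median of 0.087 over 6 genes, none 2-fold different, and 5 of 7 tested genes were lower in shelves. No gene of any of these 7 pathway lists passed the limma test for genotype, which 0 of all 11999 genes tested passed.

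Most markers of neurons in general differed between the shelf arrays in the same direction as Gad2 and Glra2, by differing amounts. Of the 15 pan-neuronal genes, 14 entered the shelf pair, 3 of them only through the KO array. Of these 14, 13 were above 0, 4 were at least 2-fold higher and the median was 0.63, while over all 15 it was 0.58. The head median was -0.0022. Their mean log2 level over all 15 was 8.02 in KO shelves, against 7.38 in wild-type shelves, and 9.61 in KO head, against 9.63 in wild-type head. Syt4 was the 1 gene of the list below the level for entry on every array. Syt4, Tubb3, Stmn2, Elavl3 and Elavl4 are given outside the naming rule. Tubb3, the neuronal tubulin, was at 8.46 in KO shelves, against 7.88 in wild-type shelves. The leading ones were Celf4 (1.52), Ina (1.48), Scg3 (1.11) and Syt1 (1.09). Stmn2 (0.042) and Elavl3 (0.098) hardly differed in the shelves, and Elavl4 (-0.28) was the 1 entering gene below 0. Of 15 genes of excitatory, glutamatergic neurons, 10 were above 0 and 5 below, with a median of 0.45. The 7 that entered, 3 of them only through the KO array, were all above 0, with 1 at least 2-fold higher and a median of 0.81. They included the glutamate receptor gene Gria2 (1.52) and the vesicular glutamate transporter gene Slc17a6 (0.84). For these genes the head median was 0.13 over 11 genes. The part of neuron content in the member differences was not tested.

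Region markers went different ways. Of the hypothalamic and ventral forebrain list, 5 of 9 genes entered the shelf pair, 2 were at least 2-fold higher and the median was 0.94, with Six6 at 1.17, Sim1 at 1.02 and Nkx2-1 at 0.94. These 3 entered only through the KO array, and over all 9 genes the median was 0.31, with 6 above 0. The mean level of this list was 6.04 in KO shelves, against 5.67 in wild-type shelves. Neural progenitor genes had a median of -0.33 over the 8 genes that entered (-0.25 over all 10), with Emx2 at -1.19 and Sox1 at 1.15. Emx2 entered only through the wild-type array and Sox1 only through the KO array. Medians in the shelves were 0.15 for the sensory ganglion list (2 genes), -0.13 for Schwann cells and glia (2 genes), 0.16 for palatal mesenchyme (7 genes), -0.082 for oral epithelium (6 genes) and 0.23 for endothelium (5 genes). Skeletal muscle genes had a median of -1.23 (8 of 8 below 0) and olfactory epithelium genes one of -1.22 over the 5 that entered (-0.81 over all 6), with Cyp2g1 at -4.17. Marker lists of several cell types thus differed between the shelf arrays beside the inhibitory genes, and their part in those levels was not tested. In the head, medians were 0.19 for the hypothalamic, -0.093 for the progenitor, -0.014 for the ganglion, -0.13 for the Schwann cell, -0.90 for the muscle, 0.030 for the mesenchyme, -0.10 for the oral epithelium, 0.012 for the olfactory and 0.17 for the endothelial list.

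**Figure D4:**
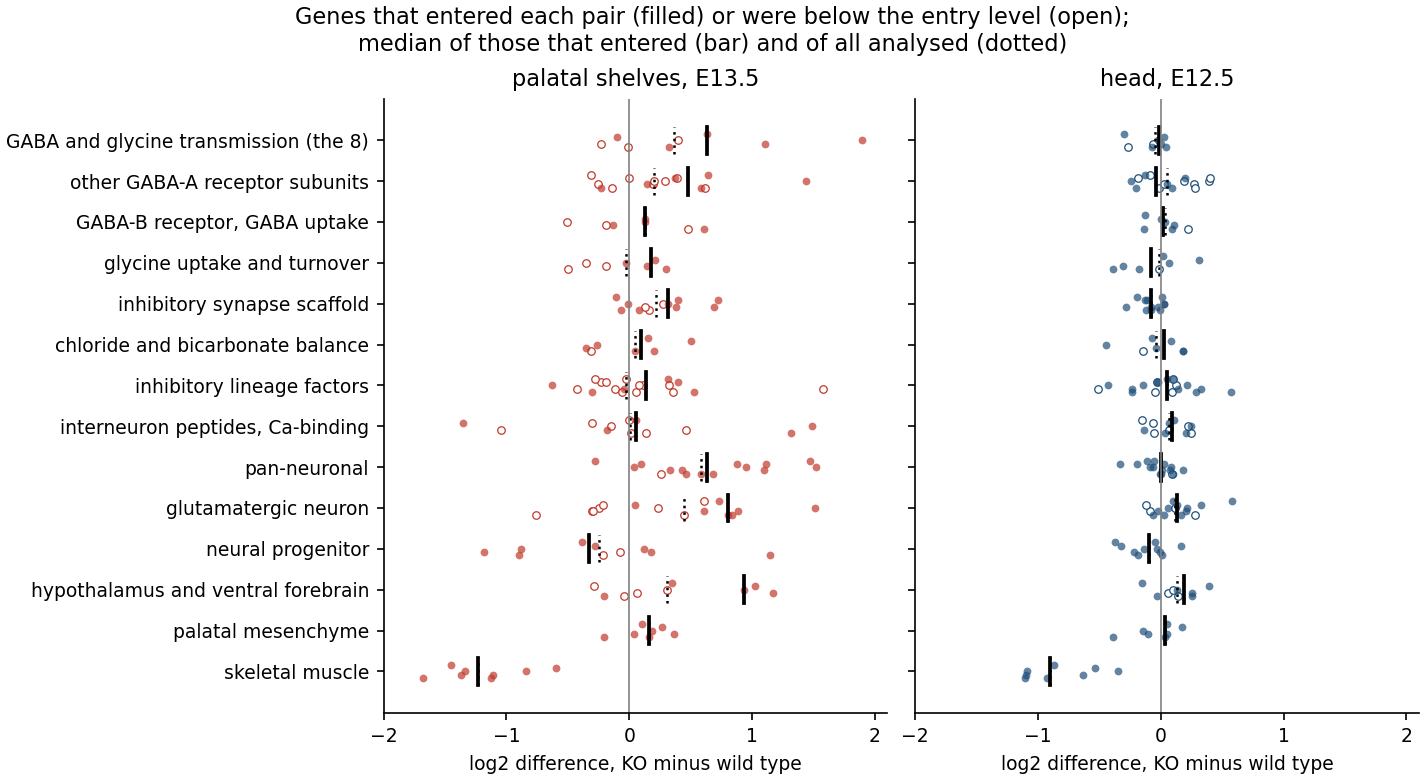
Log2 difference, KO minus wild type (horizontal axis), of the genes that entered each pair (filled points) or were below the level for entry (open points), with the median of those that entered (black bar) and of all analysed (dotted line), for 14 of the lists. In the shelves the median over all analysed is 0.36 for the 8 members, 0.58 for the pan-neuronal and 0.45 for the glutamatergic list, each below that of the genes that entered.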

How the data were processed

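RNA of 4 mouse samples was hybridised, 1 array per group. The values that the authors deposited are log2 expression per transcript cluster; the submitters' processing notes name RMA and Affymetrix Expression Console. Their versions, the build and the annotation are not stated in the sources used here. RMA equalises the arrays and compresses folds of dim genes. Groups came from sample titles; 1 other label field calls the E13.5 samples heads.

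Of 41345 clusters, 23521 carried 1 gene symbol in the platform annotation (1814 several, 16010 none), and 23328 of these matched RefSeq by Entrez identifier. Clusters of 1 gene were averaged. Close relatives such as Gad1 and Gad2 can share probe signal. Genotype and tissue effects came from limma 3.58.1 (R 4.3.3; lmFit, eBayes, Benjamini-Hochberg over all genes), tested on simulated data. P-values describe these arrays, whose number limits the precision. The members and the 18 gene lists were chosen with earlier results of these data known; up to 4 entering genes per list were named for the shelves and 2 for the head, by absolute difference, and a selection is printed. Of the list entries, 20 were not analysed here. The alternatives tried were other normalizations, filters, thresholds, limma priors and the brightest cluster.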

Additional observations from a re-analysis of the deposited data

Results flagged for a closer look

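Gad1 and Glra3 had KO differences of opposite sign in the tissues. For Gad1 the log2 difference was 0.32 in the shelves and -0.07 in the head, apart by 0.39. For Glra3 it was 0.40 in the shelves and -0.064 in the head, apart by 0.46, with all levels below the level for entry. The difference between tissues was not tested, since each tissue has 1 array per genotype. Both head values were smaller in size than the SD per transcript cluster in the head, 0.176.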

How the results depend on the processing

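Centring, quantile normalization again, cyclic loess and the brightest cluster of a gene kept the shelf differences of Glra2 between 1.88 and 1.91 and of Gad2 between 1.09 and 1.13, and the count of 2 members at least 2-fold higher in the shelves. Counted from 3-fold that count was 1, and from 1.5-fold 3. The median shelf difference was 0.63 over the members that entered, an alternative added after the data were seen. For genotype, 2 members passed with 1 common variance and 0 in the other settings, and the coefficient of Slc32a1 was 0.054 with its brightest cluster. For shelves against head, 3 members were left to test, and passed, with an upper-quartile filter (log2 7.79); Glra2 did not pass with robust eBayes (adjusted p = 0.114) nor Glrb without a filter (adjusted p = 0.105), where Glra1 passed as well as the other 5. No shelf count exists with the upper-quartile filter, since no member reached it there. The number of genes called for genotype was 0, but 11 (0.0917%) with a mean-variance trend and 150 (1.25%) with 1 common variance. For shelves against head 3342 genes were called, and 2474 without a filter. No paired analysis was possible because the labels carry no replicate numbers and each group is 1 array, and leaving out an array leaves only the difference within 1 tissue.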
